A study of Rattus norvegicus with 30 samples.

Results

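The genes described here are 36 genes of the cell cycle and of DNA replication, from the G1 cyclins to the proteins of mitosis, measured in primary rat hepatocytes exposed to diisononyl phthalate (DINP), a plasticiser. The genes came from a written list, and a probe set (the group of probes that reports a transcript) was used where the platform annotation gave it to that gene alone, by its current or an older symbol. By this rule 34 of the 36 genes had a probe set, with 47 probe sets in all, out of 14217 genes on the array. Cdc6, which loads the replicative helicase, had none, and the 2 probe sets of the ribonucleotide reductase gene Rrm2 were shared with Rrm2l1, so no value is given for either gene.

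The cells were frozen hepatocytes of male Sprague Dawley rats from a commercial supplier, thawed, plated on collagen under Matrigel and dosed on day 3 of culture. The 6 groups of 5 arrays were the vehicle (1% DMSO), DINP labelled 25 mM and DINP labelled 100 mM, each for 24 h and for 48 h. All groups thus received DMSO. The unit mM is kept as the labels give it. Each array is 1 well of cells, neither the donor animals nor their age were stated, and p-values therefore measure the spread between wells. The labels do not say whether the cells were dividing, and "resting" is used below only for the vehicle cultures without DINP.

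As background, a cell that leaves rest first raises D-type cyclins, which with CDK4 or CDK6 phosphorylate the retinoblastoma protein and free E2F transcription factors. E2F then drives cyclin E, the MCM helicase and the enzymes that make DNA precursors, while the genes of mitosis follow later, largely through the MuvB complex bound at CHR elements. Adult hepatocytes are mostly quiescent and divide after partial hepatectomy or under mitogens. Activators of the receptor PPARα, to which phthalate esters are known to belong through their monoester metabolites, raise DNA synthesis in the liver of living rats.

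The arrays carried the signature of hepatocytes: all 9 hepatocyte markers measured lay above background in every group. The stellate cell or fibroblast list of 10 genes had 6 or 7 above background, and its summed signal was 14615 to 15480 in the vehicle at 24 h against 8342 to 9844 at 25 mM and 9187 to 10476 at 100 mM. At 48 h it was 13664 to 21990 in the vehicle, 9740 to 11122 at 25 mM and 10112 to 12265 at 100 mM, so that DINP and vehicle arrays did not overlap at either time, but vimentin (Vim) made most of that difference, with means of 11378 in the vehicle and 5655 at 25 mM at 24 h. Col1a1 had 520.4 and 536 and Des 506 and 539 in the same groups, while Acta2 had 794 and 627, Col3a1 968 and 849 and Dcn 462 and 403. Of the 6 tested genes of the list, 2 had a difference above 0 at 25 mM and 24 h and 1 did at 100 mM and 24 h. In 3 of the 4 comparisons 1 of them passed as lower, and 2 did at 100 mM and 48 h. The 5S rRNA control was higher in every DINP group than in the vehicle arrays, with 1037 ± 180 (SD, n = 5) in the vehicle at 24 h and 2160 ± 574 at 25 mM. The summed signal of the 9 Kupffer cell markers was 28286 to 30931 in the vehicle at 48 h, 31894 to 36838 at 25 mM and 33632 to 34978 at 100 mM. Cd14 carried most of this (17509, 23385 and 22200.0). C1qb had 201, 359 and 402, C1qa 570, 638 and 668 and Cd68 1141, 1295 and 1307, while Lyz2 had 9564, 8173 and 8818. Clec4f had 367, 342 and 395, Csf1r 485, 502 and 478, Cd163 128, 222 and 163 and Adgre1 57.6, 79.7 and 26.3. C1qb, Cd163 and Adgre1 lay below background in that vehicle group. At 24 h Clec4f had 712, 469 and 430 and Cd163 286, 148 and 202. Cd14 had 15769, 18771 and 17946 there and C1qb 388, 616 and 454. Of the 7 tested genes of that list, 2 passed as higher and 1 as lower at 25 mM and 48 h. At 100 mM and 48 h 2 passed as higher and 0 as lower. The summed cholangiocyte markers were 12367 to 14900 in the vehicle at 48 h and 9557 to 11980 at 25 mM, through Epcam, and the hepatocyte gene Tat had 26056 in the vehicle and 13818 at 25 mM at 24 h. Endothelial, cholangiocyte, lymphocyte and erythroid lists had 4 to 5 of 8, 2 to 3 of 6, 1 to 3 of 7 and 1 to 2 of 2 genes above background. In the lymphocyte list the T cell gene Cd3e had mean signals of 168 to 299, and the endothelial gene Pecam1 of 184 to 306. The part of these markers and of the 5S control in the differences below was not tested. In bulk RNA, fewer cells of a type and less RNA per cell cannot be told apart. Replicate 1 of the vehicle at 48 h stood apart from its group for 489 probe sets, 2.63% of those tested, against 0.859 to 1.82% for the other arrays, and results at 48 h are also given without it.

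The first question was which of the genes were measurable in resting cultures. MAS5 gives every probe set a positive signal, so a limit was needed, and a probe set was called above background where its mean log2(signal + 16) over the 5 vehicle arrays lay above the 40th percentile of all probe sets, a signal of 245 at 24 h and of 242 at 48 h. Of the 34 genes, 24 lay above this limit at 24 h and 21 at 48 h, and 21 did so at both times. By its definition only 40% of all probe sets lie under the limit. Of the 47 probe sets of the listed genes, 26 lay above it at 24 h and 23 at 48 h. These counts therefore do not set the genes apart from the rest of the array. All 5 genes of the D-type cyclins and their kinases, all 3 G1/S regulators, all 6 measured MCM genes and all 4 measured genes of the clamp and of nucleotide supply lay above it in at least 1 vehicle group. Of the 4 S phase cyclins and their kinase 2 did so (Ccne2 and Cdk2). Among mitotic genes 4 of 10 did so, and of the 2 genes of chromosome structure none did.

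These shares describe the genes, and no test of the roles against each other was made. The 8 genes under the limit in all 6 groups were Ccna2, the cyclin of S phase, Cdk1, the kinase of mitosis, its activating phosphatase Cdc25b, the phosphatase Cdkn3, the kinase Plk1, the checkpoint kinase Bub1b, topoisomerase Top2a and the proliferation antigen Mki67. For Mki67 the vehicle signals were 53.2, 67.1, 31.2, 36.3 and 18.5 at 24 h and 63.0, 33.5, 38.8, 12.9 and 28.9 at 48 h. For Cdk1 they were 35.2, 26.8, 55.5, 21.3 and 19.9 and 10.5, 35.1, 21.9, 122 and 14.0. All 20 of these signals lay below the limit, as did all of those of Mki67 and Cdk1 in the DINP groups, where the highest was 187 for Mki67 and 169 for Cdk1. At such levels no change can be read, and a signal under the limit does not show that a transcript is absent.

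Some margins were thin. Mcm4, Mcm6 and Cdc20 lay above the limit at 24 h only, with mean signals of 271, 263 and 281 there and of 175, 204 and 236 at 48 h. Aurkb, a kinase of the chromosomal passenger complex, had 293 ± 59.6 and 248 ± 26.4 (SD, n = 5). Ccne1 and Aurka lay below the limit in both vehicle groups and above it in 2 DINP groups each, Ccne1 at 25 mM for 24 h and 100 mM for 48 h and Aurka at both doses for 24 h.

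The limit itself decided part of this list. Against the 95th percentile of 28 olfactory, vomeronasal and taste receptor probe sets, which hepatocytes are not known to use, 14 genes remained above background at 24 h (Ccnd1, Ccnd3, Ccne2, Cdk2, Cdk4, Cdkn1b, E2f1, Mcm5, Mcm7, Myc, Pcna, Rrm1, Tk1 and Tyms). Against the highest of these receptor probe sets, 8 remained at 24 h (Ccnd3, Cdk2, Cdk4, Cdkn1b, Mcm7, Myc, Pcna and Tk1) and 11 at 48 h. The 95th percentile of the receptors was lower at 48 h, a log2 value of 8.42 against 9.02 at 24 h. It lay nearer there to the limit used here, 8.01, and changed the list less. A limit of 1 above the median of the TrpnX control probe sets was lower, 6.56 at 24 h and 6.54 at 48 h. Dimmer genes such as Top2a lay above that one.

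**Figure D1:**
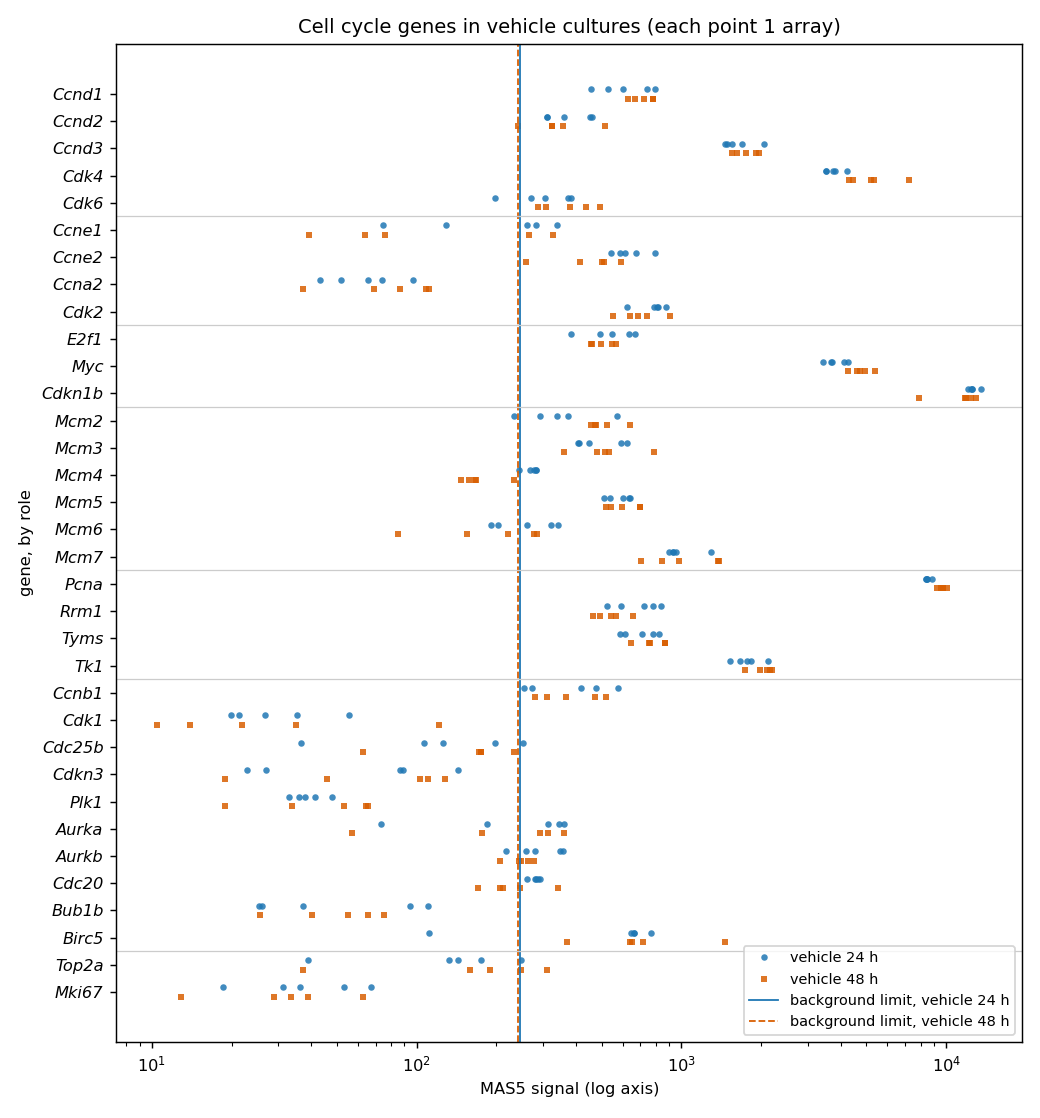
Signal of the brightest probe set of each of the 34 genes (log axis) on the 5 arrays of the vehicle at 24 h (circles) and 48 h (squares), by role from the G1 cyclins at the top to chromosome structure at the bottom; vertical lines mark the background limits of 245 and 242. Cdkn1b, Pcna, Cdk4 and Myc lie far to the right of the lines, and Mki67, Plk1, Cdk1, Bub1b and Ccna2 wholly to the left.

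The second question was what DINP did to them. Probe sets whose mean over all arrays reached the 40th percentile were tested with limma in 1 fit of all 6 groups, with p-values adjusted over 18625 probe sets, and the brightest tested probe set stood for a gene. This left 22 of the 34 genes tested. The 12 untested genes are dim over all arrays, and counts below say nothing of them.

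Against the vehicle, few of the genes moved. At 25 mM and 24 h, 2 of 22 rose (Ccnd1 and Tk1) and 2 fell (Myc and E2f1), while over all 10604 genes tested 7.87% rose and 7.84% fell. At 100 mM and 24 h, 1 rose (Ccnd1) and 1 fell (Myc), against 7.54% and 7.02% of all genes. At 25 mM and 48 h, 3 rose (Ccnd1, Tk1 and Cdk2) and 1 fell (Myc), against 9.78% and 12.1% of all genes. At 100 mM and 48 h, none rose and 1 fell (Myc), against 8.69% and 9.2% of all genes, and 4 of 22 had an unadjusted p under 0.05. The split by direction depended on the scaling. With quantile normalisation or median centring of the arrays, 3 rose at 100 mM and 24 h (Ccnd1, joined by Ccnd3 and Tk1) and 2 rose at 100 mM and 48 h (Ccnd1 and Tk1), with Myc the 1 that fell in each. E2f1 then no longer passed at 25 mM and 24 h, leaving 2 rises and 1 fall, and at 25 mM and 48 h median centring left 2 rises. With 22 genes a single call is a large share, and the counts of 0 to 3 in a direction are read here as near those of all genes. The median log2 difference of the 22 genes was -0.031, -0.035, 0.056 and 0.019 in these comparisons, beside -0.025, -0.029, -0.032 and -0.062 over all genes. The 4 comparisons share 2 vehicle groups, so values at the same time are not independent. Centring each array on its median moved the median of all tested probe sets by 0.104 at 100 mM and 48 h, and values there are read relative to that.

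**Figure D2:**
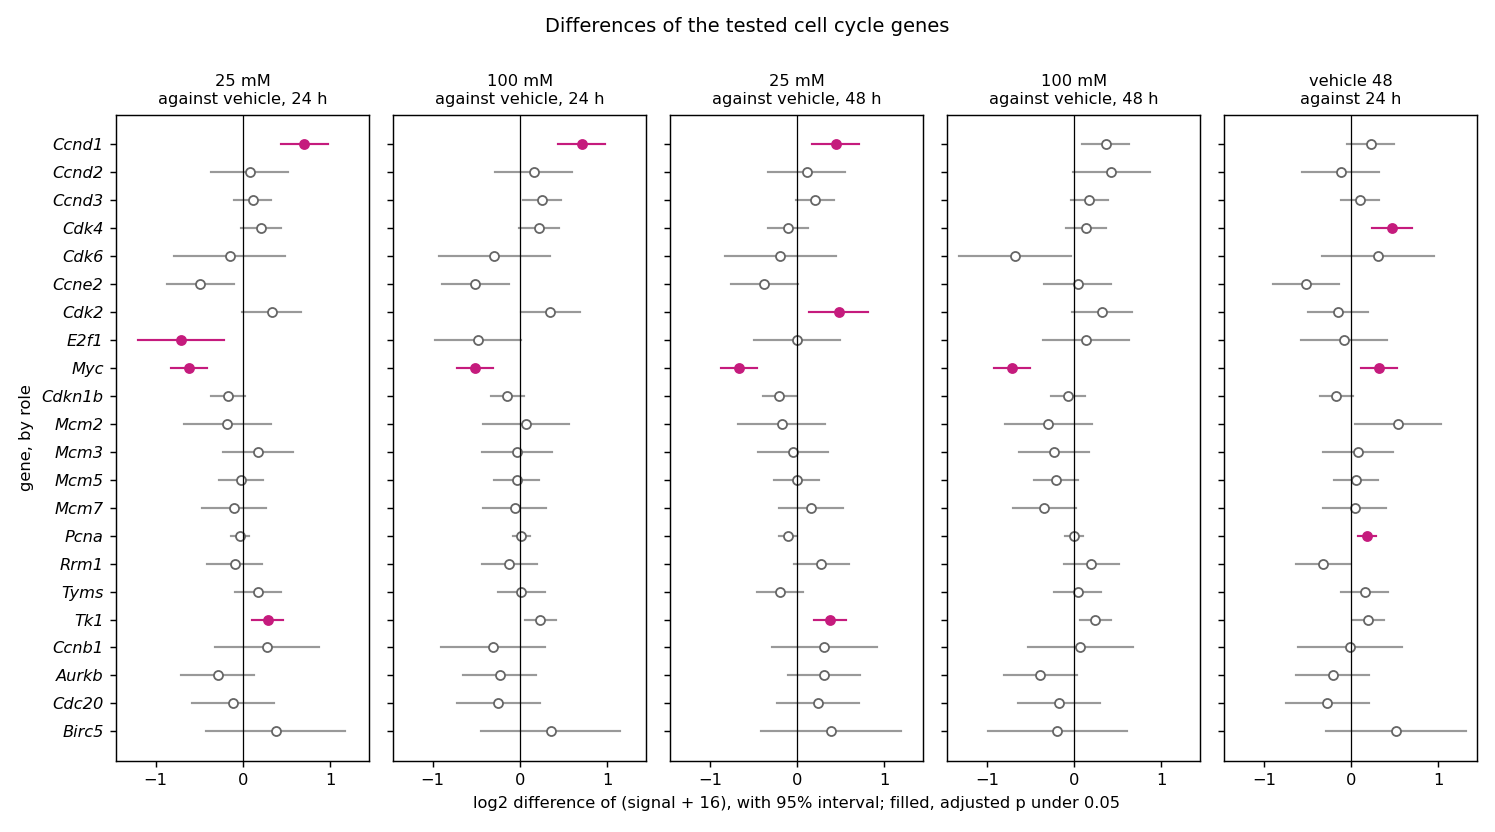
Log2 difference of (signal + 16) with its 95% interval for the 22 tested genes in the 4 comparisons with the vehicle and in the vehicle at 48 against 24 h; filled points passed an adjusted p of 0.05. Myc lies left of 0 in all 4 DINP panels, Ccnd1 right of 0 in all 4 and past the threshold in 3, and most open points have intervals that cross 0.

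Myc, the transcription factor that drives growth and entry into the cycle, fell in all 4 comparisons. At 24 h its signal was 4100.0, 3432, 3661, 3695 and 4258 in the vehicle, 2432, 2691, 2386, 2794 and 2145 at 25 mM and 3431, 2299, 2431, 2351 and 2970.1 at 100 mM. The highest DINP array at 24 h, 3431 at 100 mM, lay just under the lowest vehicle array, 3432. The difference at 25 mM was -0.62 (SE 0.10, adjusted p = 3.47e-05), 1.54-fold lower, and at 100 mM -0.52 (SE 0.10, adjusted p = 0.000485). At 48 h the signals were 5372, 4245, 4744, 4949 and 4606 in the vehicle, 3194, 3225, 3113, 2984 and 2557 at 25 mM and 3627, 2731, 2631, 2774 and 2899.8 at 100 mM. Every DINP array again lay below every vehicle array. Here the differences were -0.66 (SE 0.10, adjusted p = 8.95e-06) at 25 mM and -0.71 (SE 0.10, adjusted p = 3.93e-06) at 100 mM, 1.63-fold lower. These 4 calls held in each alternative setting and without any single array. Mean Vim signals were lower in the same groups. They were 11378, 5655 and 6595 in the vehicle, 25 mM and 100 mM groups at 24 h. At 48 h they were 14311, 6642.5 and 8064. The part of Vim in the Myc values was not tested.

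E2f1, the E2F member that activates S-phase genes, fell at 25 mM and 24 h. Its signals were 669, 492, 382, 548 and 635 in the vehicle, 306, 409, 154, 368 and 473 at 25 mM and 557, 374, 348, 405 and 259 at 100 mM. The groups overlapped, and replicate 3 at 25 mM was far below its group. The difference was -0.71 (SE 0.24, adjusted p = 0.0479) at 25 mM and -0.49 (SE 0.24, adjusted p = 0.209) at 100 mM. Leaving out 1 array at a time, the call was lost without vehicle replicate 1, 2, 4 or 5 or DINP replicate 1, 3 or 4 (adjusted p between 0.0587 and 0.205), and without DINP replicate 3 the difference was -0.46. It was also lost in 5 other settings (adjusted p between 0.0568 and 0.0908), namely quantile normalisation, median centring, no filter, no variance trend and a fit of the compared groups alone. The group means at 48 h were 506 in the vehicle, 521 at 25 mM and 576 at 100 mM. There the differences were 0.0029 (95% interval -0.49 to 0.50) and 0.13 (-0.36 to 0.63). The change of the effect of 25 mM between the times was 0.71 (SE 0.34, adjusted p = 0.598), which did not pass.

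Cdkn1b, which encodes the CDK inhibitor p27 that holds cells in rest, gave a signal of 12596 ± 571 in the vehicle at 24 h and 11364 ± 1986 at 48 h (SD, n = 5), far above the limit. Its differences under DINP ran from -0.20 (95% interval -0.40 to -0.0084) at 25 mM and 48 h to -0.067 (-0.26 to 0.13) at 100 mM and 48 h, and none passed. The lowest bound of the 4 intervals was -0.40. The group means were 12596, 11198 and 11393 in the vehicle, 25 mM and 100 mM groups at 24 h and 11364, 9810.5 and 10728 at 48 h. Its second probe set lay below the limit in all groups.

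Ccnd1, cyclin D1, the cyclin through which mitogens open G1, rose at both doses at 24 h and at 25 mM at 48 h. At 24 h the signals were 792, 739, 529, 454 and 602 in the vehicle, 910.0, 933, 1154, 1084 and 952 at 25 mM and 1048, 960.0, 964, 1219 and 867 at 100 mM. No DINP array overlapped the vehicle. The differences were 0.70 (SE 0.13, adjusted p = 0.000257) and 0.70 (SE 0.13, adjusted p = 0.00028), 1.63-fold higher at each dose. At 48 h the signals were 782, 629.7, 671, 721 and 783 in the vehicle, 892, 966, 1069, 1037 and 929 at 25 mM and 1050.5, 948, 1086, 688 and 902 at 100 mM, where replicate 4 fell among the vehicle arrays. The difference was 0.44 (SE 0.13, adjusted p = 0.0174) at 25 mM and 0.36 (SE 0.13, adjusted p = 0.0636) at 100 mM. The call at 25 mM was lost without vehicle replicate 2 (adjusted p = 0.0521), and at 100 mM the gene passed without DINP replicate 4.

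A second tested probe set of Ccnd1 had means of 215 and 192 in the vehicle at 24 and 48 h, below the limit. Its DINP means were 419 and 414 at 24 h and 365 and 316 at 48 h, above it. It passed the filter on low values through its DINP groups, so its fitted differences are not given and support nothing. The remaining Ccnd1 probe set was too dim to test.

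The other D-type cyclins and their kinases did not pass in a comparison with the vehicle, except Ccnd3 at 100 mM and 24 h under the other scalings named above. Ccnd3 had vehicle signals of 1648 ± 238 and 1762 ± 179.9 at 24 and 48 h and differences of 0.11 to 0.25, the latter at 100 mM and 24 h (95% interval 0.037 to 0.46, adjusted p = 0.124). Ccnd2 had 378 ± 72.5 and 352 ± 101 and differences up to 0.42 (-0.018 to 0.86) at 100 mM and 48 h. Cdk6, near the limit at 306 ± 76.1 and 380.3 ± 85.7, had its widest difference there too, -0.68 (-1.32 to -0.041). Cdk4, a kinase partner of the D-type cyclins, differed from the vehicle by -0.10 to 0.21, each with an interval that spans 0.

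The group means of Ccnd3 were 1648, 1768 and 1961 in the vehicle, 25 mM and 100 mM groups at 24 h and 1762, 2040.0 and 1992 at 48 h. For Ccnd2 they were 378, 399 and 431 in the vehicle, 25 mM and 100 mM groups at 24 h and 352, 383 and 469 at 48 h. Both D-type cyclins were highest in a DINP group at each time, with groups that overlapped. Cdk4 means were 3759.5, 4393 and 4381 in the vehicle, 25 mM and 100 mM groups at 24 h and 5296, 4865 and 5734 at 48 h. Cdk6 means were 306, 275 and 256 in the vehicle, 25 mM and 100 mM groups at 24 h and 380.3, 328 and 263 at 48 h, where 1 array at 25 mM and 24 h stood far above its group.

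**Figure D3:**
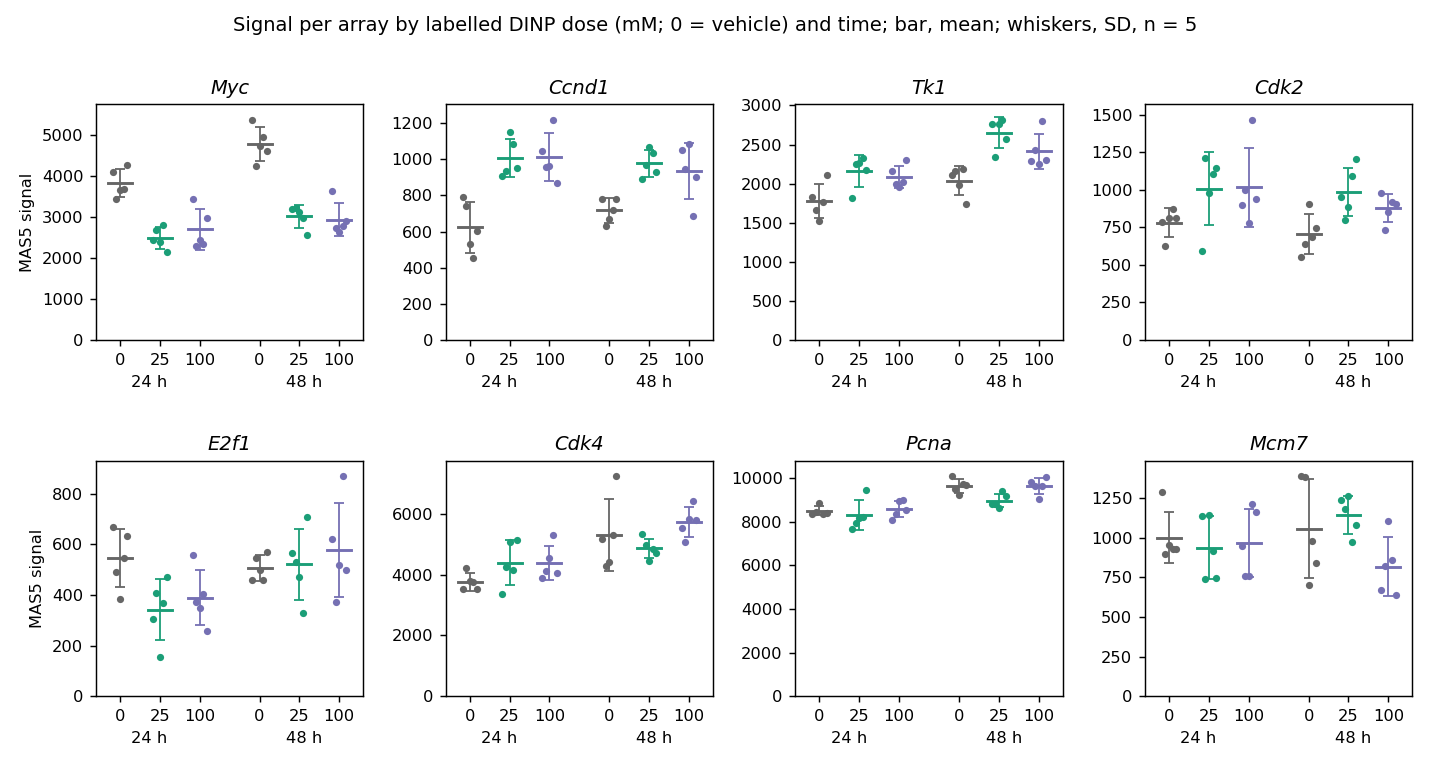
MAS5 signal of 8 genes on each of the 30 arrays by labelled DINP dose (0, 25 and 100 mM) at 24 h and 48 h; points are arrays, horizontal bars group means and whiskers SD (n = 5). Myc sits lower in all DINP groups, Ccnd1 and Tk1 sit higher, and Mcm7 and Pcna overlap the vehicle.

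Of the S-phase cyclins and their kinase, Cdk2, which acts with cyclins E and A, rose at 25 mM and 48 h. Its signals were 549.7, 641, 908, 688 and 743 in the vehicle, 951, 799.9, 882, 1089 and 1204 at 25 mM and 978, 730.3, 849, 917 and 906 at 100 mM. One vehicle array overlapped the 25 mM group. The difference at 25 mM was 0.48 (SE 0.17, adjusted p = 0.0449). This call was lost without vehicle replicate 1, 2, 4 or 5 or DINP replicate 1, 3, 4 or 5 (adjusted p between 0.0511 and 0.127), and in 5 other settings (adjusted p between 0.052 and 0.0929), namely median centring, no filter, no variance trend, a fit of the compared groups alone and array weights. At 24 h the group means were 781, 1007 and 1015. In the other comparisons the differences were 0.33, 0.35 and 0.32, with adjusted p of 0.223, 0.194 and 0.223. A dimmer second probe set of Cdk2 passed in another comparison, at 25 mM and 24 h, by 0.89 (SE 0.23, adjusted p = 0.00647), with signals of 387, 196, 361, 293 and 376 in the vehicle and 361, 643, 575, 853 and 653 at 25 mM. Both probe sets thus lay above 0 in all 4 comparisons, and each passed in 1.

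Ccne2, cyclin E2, was lower in 3 of the 4 comparisons without passing. Its signals at 24 h were 587, 673, 792, 612 and 542 in the vehicle, 411, 467, 518, 383 and 474 at 25 mM and 562, 428, 419.5, 336 and 489.8 at 100 mM. The vehicle and 25 mM arrays did not overlap. The differences were -0.49 (SE 0.19, adjusted p = 0.0839) and -0.51 (SE 0.19, adjusted p = 0.0709), and at 48 h -0.38 and 0.042 (95% intervals -0.76 to 0.0056 and -0.34 to 0.42). The group means of Ccne2 at 48 h were 456 in the vehicle, 340.1 at 25 mM and 460.0 at 100 mM. Its second probe set, Ccne1 and Ccna2 were too dim to test.

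The MCM proteins form the helicase that is loaded at replication origins in G1 and unwinds DNA in S phase. Their promoters are shown because all 5 MCM genes in RefSeq's promoter table (build GRCr8, from 250 bases before to 50 after the gene's start) hold letters of an E2F element. The search took TTTCCCGC, TTTGGCGC, TTTCGCGC and TTTGCCGC on both strands, where 2 overlapping matches on opposite strands form a longer run. Such a match is in 2.2% of the 27457 promoters listed there, and of the 25 listed genes with an entry 7 did: Mcm2, Mcm3, Mcm5, Mcm6, Mcm7, Tyms and Cdk1. Each sequence runs 5′ to 3′ along the gene from 150 bases before to 25 after its start, with the E2F letters in capitals. Mcm5 and Mcm7 hold further matches upstream of the stretch shown.
Mcm2, GRCr8 chr4:122918070-122918244, minus strand: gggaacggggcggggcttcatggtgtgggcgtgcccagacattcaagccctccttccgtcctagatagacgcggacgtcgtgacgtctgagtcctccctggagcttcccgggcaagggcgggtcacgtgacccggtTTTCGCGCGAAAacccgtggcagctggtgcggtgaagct
Mcm3, GRCr8 chr9:30733722-30733896, minus strand: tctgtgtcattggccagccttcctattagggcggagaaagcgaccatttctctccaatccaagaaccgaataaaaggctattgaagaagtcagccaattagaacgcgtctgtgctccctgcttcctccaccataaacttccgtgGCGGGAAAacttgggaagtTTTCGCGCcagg
Mcm5, GRCr8 chr19:13488663-13488837, plus strand: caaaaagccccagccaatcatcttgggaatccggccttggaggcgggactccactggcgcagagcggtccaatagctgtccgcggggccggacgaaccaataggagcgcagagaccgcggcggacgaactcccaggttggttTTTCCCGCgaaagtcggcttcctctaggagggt
Mcm6, GRCr8 chr13:42404328-42404502, minus strand: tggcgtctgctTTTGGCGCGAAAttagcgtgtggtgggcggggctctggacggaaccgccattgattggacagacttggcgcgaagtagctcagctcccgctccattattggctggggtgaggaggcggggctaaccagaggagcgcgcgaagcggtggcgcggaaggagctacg
Mcm7, GRCr8 chr12:22163154-22163328, minus strand: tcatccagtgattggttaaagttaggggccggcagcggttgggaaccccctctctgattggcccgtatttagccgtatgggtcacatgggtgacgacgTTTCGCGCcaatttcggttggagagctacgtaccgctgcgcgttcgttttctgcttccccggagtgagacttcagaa
Tyms, GRCr8 chr9:120776059-120776233, minus strand: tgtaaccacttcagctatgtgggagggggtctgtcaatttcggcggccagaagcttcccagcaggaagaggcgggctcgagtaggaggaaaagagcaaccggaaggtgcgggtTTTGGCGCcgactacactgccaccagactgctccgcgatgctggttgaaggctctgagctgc
A match is a description of the letters and shows no binding.

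None of these MCM genes passed in a comparison with the vehicle. Mcm7, the MCM gene that lay above the highest receptor probe set at both times, had signals of 1290.5, 899, 955, 929 and 932 in the vehicle at 24 h, 1137, 741, 1146, 919 and 748 at 25 mM and 946, 761, 760.2, 1210.2 and 1160.2 at 100 mM, and the groups overlapped. Its differences were -0.10, -0.063, 0.16 and -0.34 in the 4 comparisons, the last with an interval of -0.70 to 0.022. Mcm5 had 584 ± 58.2 in the vehicle at 24 h and differences from -0.21 to -0.0033, and the interval at 25 mM and 24 h was -0.28 to 0.23. Mcm3, at 496 ± 103, gave -0.23 to 0.18. Mcm2, at 362 ± 129, gave -0.30 to 0.068 with wider intervals, -0.68 to 0.32 at 25 mM and 24 h. The intervals of Mcm2 were thus wider than those of Mcm5 in the same comparison, and for neither does the missed threshold show an unchanged level. Mcm4 and Mcm6 were too dim to test.

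The group means of Mcm7 were 1001, 938 and 968 in the vehicle, 25 mM and 100 mM groups at 24 h and 1058, 1146 and 818 at 48 h. For Mcm5 they were 584, 574 and 574 in the vehicle, 25 mM and 100 mM groups at 24 h and 609.5, 607 and 523 at 48 h. For Mcm3 they were 496, 566 and 479.8 in the vehicle, 25 mM and 100 mM groups at 24 h and 534, 514 and 444 at 48 h. All 3 had their lowest mean at 100 mM and 48 h. Mcm2 means were 362, 331 and 369 in the vehicle, 25 mM and 100 mM groups at 24 h and 514, 453 and 421 at 48 h. Mcm4 means were 271, 243 and 242 in the vehicle, 25 mM and 100 mM groups at 24 h and 175, 167 and 173 at 48 h, and Mcm6 means were 263, 199 and 181 in the vehicle, 25 mM and 100 mM groups at 24 h and 204, 179.9 and 114 at 48 h. Both were below the limit in every group at 48 h.

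Among the genes of the clamp and of nucleotide supply, Tk1, the thymidine kinase of S phase, rose at 25 mM at both times. Its signals at 24 h were 1828, 1664, 1526, 1769 and 2114 in the vehicle, 1815, 2245, 2259, 2326 and 2176 at 25 mM and 2156, 1998, 1958, 2019 and 2304 at 100 mM. The 25 mM arrays lay higher except replicate 1, which fell among the vehicle arrays. The difference was 0.28 (SE 0.088, adjusted p = 0.0272), 1.22-fold, and 0.23 (SE 0.088, adjusted p = 0.0797) at 100 mM. The call at 25 mM was lost without vehicle replicate 2, 3 or 4 or DINP replicate 2, 3 or 4 (adjusted p between 0.0515 and 0.098), and with a fit of the compared groups alone (adjusted p = 0.0734).

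At 48 h the Tk1 signals were 2112, 2166, 1988, 2190.3 and 1734 in the vehicle, 2757, 2335, 2763, 2816 and 2572 at 25 mM and 2285, 2434, 2249.9, 2797 and 2299 at 100 mM. No DINP array overlapped the vehicle. The differences were 0.38 (SE 0.088, adjusted p = 0.00203) and 0.24 (SE 0.088, adjusted p = 0.0601), so that the higher dose did not pass. A second Tk1 probe set gave 0.41 (SE 0.11, adjusted p = 0.0128) and 0.36 (SE 0.11, adjusted p = 0.0319) at 24 h, 0.34 (SE 0.11, adjusted p = 0.0372) at 25 mM and 48 h and 0.29 (SE 0.11, adjusted p = 0.0848) at 100 mM and 48 h. It called 3 comparisons where the brighter one called 2. Its call at 100 mM and 24 h was lost without vehicle replicate 2, 3 or 4 or DINP replicate 2, 3 or 4 (adjusted p between 0.0509 and 0.0947), and that at 25 mM and 48 h without vehicle replicate 2, 4 or 5 or DINP replicate 1, 2 or 5 (adjusted p between 0.0694 and 0.121), and in 2 other settings (adjusted p between 0.0569 and 0.152), namely no filter and a fit of the compared groups alone. The remaining Tk1 probe set was too dim to test.

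Pcna, the sliding clamp of the replication fork, did not pass against the vehicle. Its signals at 24 h were 8376, 8474, 8866, 8375 and 8426 in the vehicle, 7678, 7944, 8198, 8236 and 9459 at 25 mM and 8106, 8383, 8952, 9009 and 8548 at 100 mM, and the groups overlapped. The differences were -0.038 (95% interval -0.14 to 0.063) and 0.015 (-0.085 to 0.12) at 24 h, and -0.10 (-0.21 to -0.0039) and -0.0016 (-0.10 to 0.10) at 48 h. The SE, 0.050, was the smallest among the 22 tested genes. Rrm1, the large subunit of ribonucleotide reductase, had 691 ± 131 in the vehicle at 24 h and differences from -0.12 to 0.27. Tyms, thymidylate synthase, had 701 ± 102 and differences from -0.20 to 0.17. Neither passed. Rrm1 means were 691, 637 and 638 in the vehicle, 25 mM and 100 mM groups at 24 h and 545, 662 and 629 at 48 h. Its vehicle mean was the highest of the 3 groups at 24 h and the lowest at 48 h. Tyms means were 701, 788 and 707 in the vehicle, 25 mM and 100 mM groups at 24 h and 781, 683 and 804 at 48 h.

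Genes of mitosis carry a different promoter element, the CHR, with the letters TTTGAA. Of all promoters 18.2% hold it on either strand and 9 of the 25 listed genes do, and 8 of these 9 (Cdk1, Cdkn3, Plk1, Cdc20, Bub1b, Birc5, Top2a and Mki67) belong to mitosis or chromosome structure, for which 11 genes have an entry. The CCAAT box, on either strand, was in 18 of the 25 and in 37.7% of all promoters. Promoters with the CHR near the gene's start are shown for 3 genes below the limit in every group and for Birc5, which lay above it, with the CHR in capitals and other matches in lower case.
Cdk1, GRCr8 chr20:19265143-19265317, plus strand: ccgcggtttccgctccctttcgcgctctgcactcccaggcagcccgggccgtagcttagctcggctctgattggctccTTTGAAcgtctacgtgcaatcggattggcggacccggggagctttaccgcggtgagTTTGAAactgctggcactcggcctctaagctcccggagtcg
Plk1, GRCr8 chr1:186147508-186147682, plus strand: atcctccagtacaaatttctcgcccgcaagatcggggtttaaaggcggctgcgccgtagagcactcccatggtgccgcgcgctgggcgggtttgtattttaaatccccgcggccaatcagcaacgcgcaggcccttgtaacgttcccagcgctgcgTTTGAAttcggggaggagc
Bub1b, GRCr8 chr3:126016917-126017091, plus strand: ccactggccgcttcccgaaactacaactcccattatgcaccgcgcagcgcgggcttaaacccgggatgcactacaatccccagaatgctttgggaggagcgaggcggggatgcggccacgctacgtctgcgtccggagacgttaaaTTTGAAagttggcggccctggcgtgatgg
Birc5, GRCr8 chr10:103571996-103572170, plus strand: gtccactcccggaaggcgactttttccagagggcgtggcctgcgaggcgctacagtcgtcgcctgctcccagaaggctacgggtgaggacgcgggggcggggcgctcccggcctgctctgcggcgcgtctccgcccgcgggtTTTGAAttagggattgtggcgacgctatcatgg
Of the 8 mitotic and structural genes with a CHR match, 6 were below the limit in all groups. Among those with an entry and no CHR match were Cdc25b, below it in all groups too, and Ccnb1, which lay above it. Aurka and Aurkb, of which not both have an entry, showed no match, and each lay above the limit in at least 1 group. Too few of these genes lack the match to set the level beside it, and a link was not tested.

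The tested mitotic genes did not pass in a comparison with the vehicle. Birc5, survivin of the chromosomal passenger complex, stood above the limit but varied widely between wells, from 111 to 770.1 in the vehicle at 24 h and from 369 to 1459 at 48 h. Its differences of -0.19 to 0.39 had intervals of up to -0.41 to 1.19. Ccnb1, cyclin B1, had 400.1 ± 136 and 390.0 ± 104 in the vehicle at 24 and 48 h and differences of -0.31 to 0.31. Aurkb gave -0.39 to 0.31 and Cdc20, the activator of the anaphase-promoting complex, -0.25 to 0.24. The SE of these 4 genes was 0.20 for Aurkb, 0.23 for Cdc20, 0.29 for Ccnb1 and 0.39 for Birc5, wider than the 0.13 of Ccnd1. Group means were 571, 645 and 672 in the vehicle, 25 mM and 100 mM groups at 24 h and 768, 969 and 647 at 48 h for Birc5. They were 400.1, 481 and 321 in the vehicle, 25 mM and 100 mM groups at 24 h and 390.0, 492 and 438 at 48 h for Ccnb1. Those of Aurkb were 293, 236 and 244 in the vehicle, 25 mM and 100 mM groups at 24 h and 248, 314 and 189 at 48 h. All 3 had their highest mean of the 48 h groups at 25 mM. Cdc20 means were 281, 262 and 242 in the vehicle, 25 mM and 100 mM groups at 24 h and 236, 281 and 206 at 48 h. Cdc20 has 5 probe sets, of which 3 lay above the limit in at least 1 group and only 1 was tested. Ccnb1 has 2, of which 1 was tested, and Top2a has 2, of which 0 were tested. Cdk1, Plk1, Bub1b, Cdkn3, Cdc25b, Aurka, Top2a and Mki67 were too dim to test.

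The doses were not told apart. In 100 against 25 mM, 0 of the 22 genes passed at 24 h and 0 at 48 h, where 0.00943% of all genes did at each time, and 0 and 5 had an unadjusted p under 0.05. The 5 were Cdk4, Ccne2, Pcna, Mcm7 and Aurkb, with differences of 0.23, 0.42, 0.10, -0.50 and -0.70, and adjusted p of 0.427 or more. For Myc the difference between the doses was 0.10 (95% interval -0.10 to 0.31) at 24 h and -0.044 (-0.25 to 0.16) at 48 h. For Ccnd1 it was 0.0043 (-0.27 to 0.27) and -0.079 (-0.35 to 0.19).

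Nor did the effect of DINP differ between the times by test. The change of the effect from 24 to 48 h passed for 0 of 22 genes at 25 mM and at 100 mM, where 0.358% and 0.113% of all genes did, and 2 and 1 had an unadjusted p under 0.05 (E2f1 and Aurkb, and Ccne2). For Ccnd1 the effect was -0.26 at 25 mM and -0.34 at 100 mM at 48 h relative to 24 h (95% intervals -0.64 to 0.12 and -0.72 to 0.04). For Myc these values were -0.044 (-0.34 to 0.25) and -0.19 (-0.48 to 0.10).

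The vehicle cultures themselves changed between 24 and 48 h. Of the 22 genes 3 rose (Cdk4, Myc and Pcna) and 0 fell, against 9.49% and 7.92% of all genes, and the median difference was 0.069 beside 0.031 over all genes. Cdk4 signals were 3516, 4214, 3805, 3749 and 3512 at 24 h and 5190.0, 4296, 4427, 5318 and 7248 at 48 h. No array of 1 time overlapped the other, and the difference was 0.47 (SE 0.11, adjusted p = 0.00389), 1.38-fold. Pcna went from the 24 h signals above to 10106, 9522, 9231, 9734 and 9691, again without overlap, a difference of 0.18 (SE 0.05, adjusted p = 0.0105), a call lost with each array centred on its median (adjusted p = 0.106). Myc differed by 0.32 (SE 0.10, adjusted p = 0.0304), with 4245 as the lowest array at 48 h and 4258 as the highest at 24 h. That call was lost without 24 h vehicle array 2, 3 or 4 or 48 h vehicle array 1 or 4 (adjusted p between 0.0591 and 0.0957). Ccne2, at -0.52 with an adjusted p of 0.0622, was the nearest to passing among those below 0.

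Leaving out replicate 1 of the vehicle at 48 h, the array that stood apart, changed part of these lists. At 25 mM and 48 h 5 genes then passed (Ccnd1, Tk1 and Myc, joined by Ccne2 and Cdkn1b), and Cdk2 did not. At 100 mM and 48 h Myc alone passed as before. In the vehicle over time Cdk4 and Pcna passed and Myc did not, with a difference of 0.28 and an adjusted p of 0.0957.

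Around these genes, 10 lists of other cell cycle genes were counted, with 175 genes, of which 157 had a probe set and 114 were tested. At 24 h, 4 rose and 9 fell at each dose. At 48 h, 9 rose and 15 fell at 25 mM, and 2 rose and 11 fell at 100 mM. The shares of all genes that rose and fell in these comparisons are those given above. The medians of the 114 were -0.038, -0.061, -0.045 and -0.096. For dose against dose and for the change of effect with time, 0 of 114 passed in each of the 4 comparisons by limma, with 5 to 13 at an unadjusted p under 0.05.

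One gene moved far more than the rest. Spc24, a subunit of the Ndc80 complex that ties microtubules to kinetochores, had signals of 2222, 2586, 3354, 2610.4 and 2891 in the vehicle at 24 h, 9671, 12444, 11568, 11305 and 9632 at 25 mM and 8516, 9472, 9316, 9456 and 7704 at 100 mM. At 48 h they were 1305, 1554, 2078, 1930.2 and 1605 in the vehicle, 10656, 7596, 10069, 10647 and 8405 at 25 mM and 7406, 7988, 9164, 8552 and 7025 at 100 mM. Every DINP array lay more than 2 times above every vehicle array of its time. The differences were 2.00 (SE 0.11, adjusted p = 5.29e-15), 1.71 (SE 0.11, adjusted p = 3.69e-13), 2.48 (SE 0.11, adjusted p = 2.42e-17) and 2.25 (SE 0.11, adjusted p = 3.61e-16), 5.57-fold at 25 mM and 48 h. The calls held in each alternative and without any single array. It was the only 1 of the 13 tested genes of the kinetochore, checkpoint and spindle list to pass in the 4 comparisons. Its partner Spc25 had group means of 261 to 311 and Nuf2 of 439 to 605, and neither passed. In the vehicle at 24 h their means were 289 and 483, beside 2733 for Spc24. Only 1 probe set reports Spc24, and whether it reports that gene alone was not tested. In the vehicle Spc24 fell from 24 to 48 h, with a difference of -0.69 (SE 0.11, adjusted p = 7.58e-05).

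In origin licensing and firing, with 11 genes tested, Mcm10, which helps to start the helicase, rose by 1.21 (SE 0.23, adjusted p = 0.000214) and 1.15 (SE 0.23, adjusted p = 0.000501) at 24 h and by 0.72 (SE 0.23, adjusted p = 0.0233) at 25 mM and 48 h, from a vehicle signal of 457 ± 196 at 24 h. The last call was lost without vehicle replicate 1 or DINP replicate 3 (adjusted p between 0.0629 and 0.0676), and with array weights (adjusted p = 0.0564). A second, dimmer Mcm10 probe set did not pass at 24 h, at 0.41 (SE 0.16, adjusted p = 0.097) and 0.15 (SE 0.16, adjusted p = 0.643), and did at 25 mM and 48 h, at 0.56 (SE 0.16, adjusted p = 0.0141). At 25 mM and 48 h Gmnn, geminin, which blocks relicensing, rose by 0.49 (SE 0.16, adjusted p = 0.0313) and Orc5, a subunit of the origin recognition complex, fell (difference -0.24, SE 0.077, adjusted p = 0.0283). These were lost without vehicle replicate 1 or 5 or DINP replicate 3 or 5 (adjusted p between 0.0633 and 0.113) and vehicle replicate 4 or DINP replicate 1 or 5 (adjusted p between 0.0655 and 0.0978), respectively. Gmnn was also lost in 3 other settings (adjusted p between 0.0518 and 0.0906), namely no filter, a fit of the compared groups alone and array weights. Orc5 was lost in 4 other settings (adjusted p between 0.0708 and 0.189), namely quantile normalisation, median centring, a fit of the compared groups alone and median over probe sets, and its second probe set gave -0.16 (SE 0.13, adjusted p = 0.455).

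Of 11 tested mitotic kinases, phosphatases and APC/C genes, Cdc25a, the phosphatase that activates CDK2, rose by 0.58 (SE 0.11, adjusted p = 0.00031), 0.53 (SE 0.11, adjusted p = 0.00126) and, at 25 mM and 48 h, 0.48 (SE 0.11, adjusted p = 0.00209). Plk2, a p53-responsive kinase, fell in all 4 comparisons, with differences of -0.37, -0.36, -0.54 and -0.54. With each array centred on its median, its 2 calls at 24 h were lost (adjusted p = 0.0573 and 0.0804). Cdc16, a subunit of the anaphase-promoting complex, fell at 25 mM and 48 h (difference -0.26, SE 0.07, adjusted p = 0.00694), but its second probe set gave 0.082 (SE 0.22, adjusted p = 0.866). The call was lost in 3 other settings (adjusted p between 0.0532 and 0.684), namely quantile normalisation, a fit of the compared groups alone and median over probe sets.

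Of 13 other cyclins and CDK genes tested, none rose and 1, 2, 3 and 3 fell. In the same 4 comparisons 7.87%, 7.54%, 9.78% and 8.69% of all genes rose and 7.84%, 7.02%, 12.1% and 9.2% fell. With 13 genes, the lack of a rise is near those shares. The falls were near their share at 25 mM and 24 h and above it in the other comparisons, and no test of the list was made. Ccng1, cyclin G1, a p53 target, fell in all 4, with 10069 ± 455 (SD, n = 5) in the vehicle and 6663 ± 837 at 25 mM at 48 h and differences of -0.27, -0.37, -0.60 and -0.55. The first was lost without DINP replicate 4 (adjusted p = 0.0583), and both at 24 h with median centring (adjusted p = 0.237 and 0.0539). Mnat1, the assembly factor of the CDK-activating kinase, fell at 100 mM and 24 h and at both doses at 48 h, with differences of -0.23, -0.48 and -0.35. The first was lost without vehicle replicate 5 or DINP replicate 1 (adjusted p between 0.0628 and 0.0883), and in 3 other settings (adjusted p between 0.0522 and 0.374), namely quantile normalisation, median centring and a fit of the compared groups alone, with a difference of -0.15 under median centring. The call at 100 mM and 48 h was lost with median centring (adjusted p = 0.0756). Cks2, a small CDK-binding protein, gave -0.29 (SE 0.093, adjusted p = 0.0246) at 25 mM and 48 h, lost without vehicle replicate 3 or DINP replicate 2 (adjusted p between 0.0539 and 0.0819), and in 2 other settings (adjusted p between 0.054 and 0.0853), namely quantile normalisation and a fit of the compared groups alone.

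In the MYC network and immediate early genes, with 16 tested, 4, 3, 5 and 4 fell and none rose. Over all genes 7.84%, 7.02%, 12.1% and 9.2% fell and 7.87%, 7.54%, 9.78% and 8.69% rose. In a list this small, the lack of a rise is near the latter shares. The falls lay above the former shares in all 4 comparisons, and no test of the list was made. Ier3 fell in all 4 comparisons, with differences of -0.48, -0.40, -0.43 and -0.44 (adjusted p of 5.76e-05 or less). Junb passed at 48 h only, with differences of -0.70 (SE 0.19, adjusted p = 0.00765) and -0.74 (SE 0.19, adjusted p = 0.00586), and Egr1 at 24 h only, with differences of -0.47 (SE 0.13, adjusted p = 0.0125) and -0.48 (SE 0.13, adjusted p = 0.0122). That the times differ was not shown, since no gene of these lists passed the test of the change of effect with time.

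In the RB, E2F and MuvB list, with 14 tested, Rbl2, which encodes the pocket protein p130 of resting cells, fell at 24 h, with differences of -0.39 (SE 0.13, adjusted p = 0.0341) and -0.61 (SE 0.13, adjusted p = 0.000892), the first lost without vehicle replicate 1, 2, 4 or 5 or DINP replicate 2, 3 or 5 (adjusted p between 0.056 and 0.0943), and in 3 other settings (adjusted p between 0.0541 and 0.0958), namely quantile normalisation, median centring and no filter. It also fell in the vehicle from 24 to 48 h, with a difference of -0.46 (SE 0.13, adjusted p = 0.0109). Lin37, a MuvB subunit, rose at 25 mM by 0.50 (SE 0.13, adjusted p = 0.00899) and 0.37 (SE 0.13, adjusted p = 0.0456), the second lost without vehicle replicate 2, 3, 4 or 5 or DINP replicate 1, 2 or 3 (adjusted p between 0.0521 and 0.165). That call was also lost in 4 other settings (adjusted p between 0.0522 and 0.0958), namely median centring, no filter, a fit of the compared groups alone and the round of array numbers as a block. Tfdp1, the dimer partner of E2F, fell at 25 mM and 48 h (difference -0.22, SE 0.059, adjusted p = 0.00662).

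Of 18 polymerase, clamp loader and fork genes tested, Prim2, the large primase subunit, rose at 25 mM and 48 h (difference 1.06, SE 0.36, adjusted p = 0.0388) from a vehicle mean below the limit, and the call was lost without vehicle replicate 2, 3, 4 or 5 or DINP replicate 2, 3 or 5 (adjusted p between 0.0576 and 0.111), and with no filter (adjusted p = 0.0662). Rfc4 and Rpa2, of the clamp loader and the single-strand binding complex, gave 0.42 (SE 0.14, adjusted p = 0.0387) and -0.50 (SE 0.16, adjusted p = 0.0233) there, lost without vehicle replicate 2, 3 or 4 or DINP replicate 2, 4 or 5 (adjusted p between 0.0597 and 0.0959) and vehicle replicate 1 or 4 or DINP replicate 1 or 2 (adjusted p between 0.052 and 0.0726). Rfc4 was also lost in 3 other settings (adjusted p between 0.0546 and 0.0629), namely median centring, no filter and no variance trend, and Rpa2 with a fit of the compared groups alone (adjusted p = 0.0642). Of 8 nucleotide supply genes, Shmt1 and Ctps1 gave 0.26 (SE 0.085, adjusted p = 0.0278) and -0.40 (SE 0.14, adjusted p = 0.0474) at 25 mM and 48 h. Shmt1 was lost without vehicle replicate 4 or 5 or DINP replicate 3 or 5 (adjusted p between 0.0588 and 0.105), and Ctps1 when any 1 of the 10 arrays was left out (adjusted p between 0.0552 and 0.102). Shmt1 was also lost in 2 other settings (adjusted p between 0.0563 and 0.0719), namely median centring and a fit of the compared groups alone, and Ctps1 in 5 other settings (adjusted p between 0.052 and 0.0752), namely quantile normalisation, no filter, no variance trend, array weights and the round of array numbers as a block.

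Of 6 tested genes of chromosome condensation and cytokinesis, none rose and 1, 2, 1 and 2 fell. Over all genes 7.87%, 7.54%, 9.78% and 8.69% rose and 7.84%, 7.02%, 12.1% and 9.2% fell. With 6 genes, the lack of a rise is near those shares. The falls, of 1 or 2 genes, lay above theirs, and no test of the list was made. Diaph3, a formin of the cytokinetic ring, fell at 24 h, with differences of -0.95 (SE 0.26, adjusted p = 0.0105) and -1.14 (SE 0.26, adjusted p = 0.00231), from 1096 ± 215 in the vehicle, and Diaph3 fell over time in the vehicle as well (difference -0.82, SE 0.26, adjusted p = 0.0274). Smc2, of condensin, fell at 100 mM and 24 h (difference -0.46, SE 0.14, adjusted p = 0.0316), a call lost without vehicle replicate 1, 3 or 4 or DINP replicate 1, 3, 4 or 5 (adjusted p between 0.0503 and 0.0956). It was also lost in 4 other settings (adjusted p between 0.0574 and 0.0912), namely quantile normalisation, median centring, no filter and a fit of the compared groups alone. Smc2 fell at both doses at 48 h, with differences of -0.53 and -0.52, the latter lost without vehicle replicate 3 (adjusted p = 0.0598). Lmnb1, lamin B1, fell at 100 mM and 48 h (difference -0.47, SE 0.11, adjusted p = 0.00319). Its other tested probe set gave 0.0048 (SE 0.25, adjusted p = 0.993), and with the median over probe sets (adjusted p = 0.311) the difference was -0.23. Of 4 other CDK inhibitors only Cdkn1c (p57) was called, at 100 mM and 48 h (difference -1.17, SE 0.40, adjusted p = 0.0427), where its mean lay below the limit, and that call was lost without vehicle replicate 2, 3, 4 or 5 or DINP replicate 2, 4 or 5 (adjusted p between 0.0583 and 0.166), and in 6 other settings (adjusted p between 0.0513 and 0.124), namely quantile normalisation, median centring, no filter, no variance trend, a fit of the compared groups alone and the round of array numbers as a block.

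**Figure D4:**
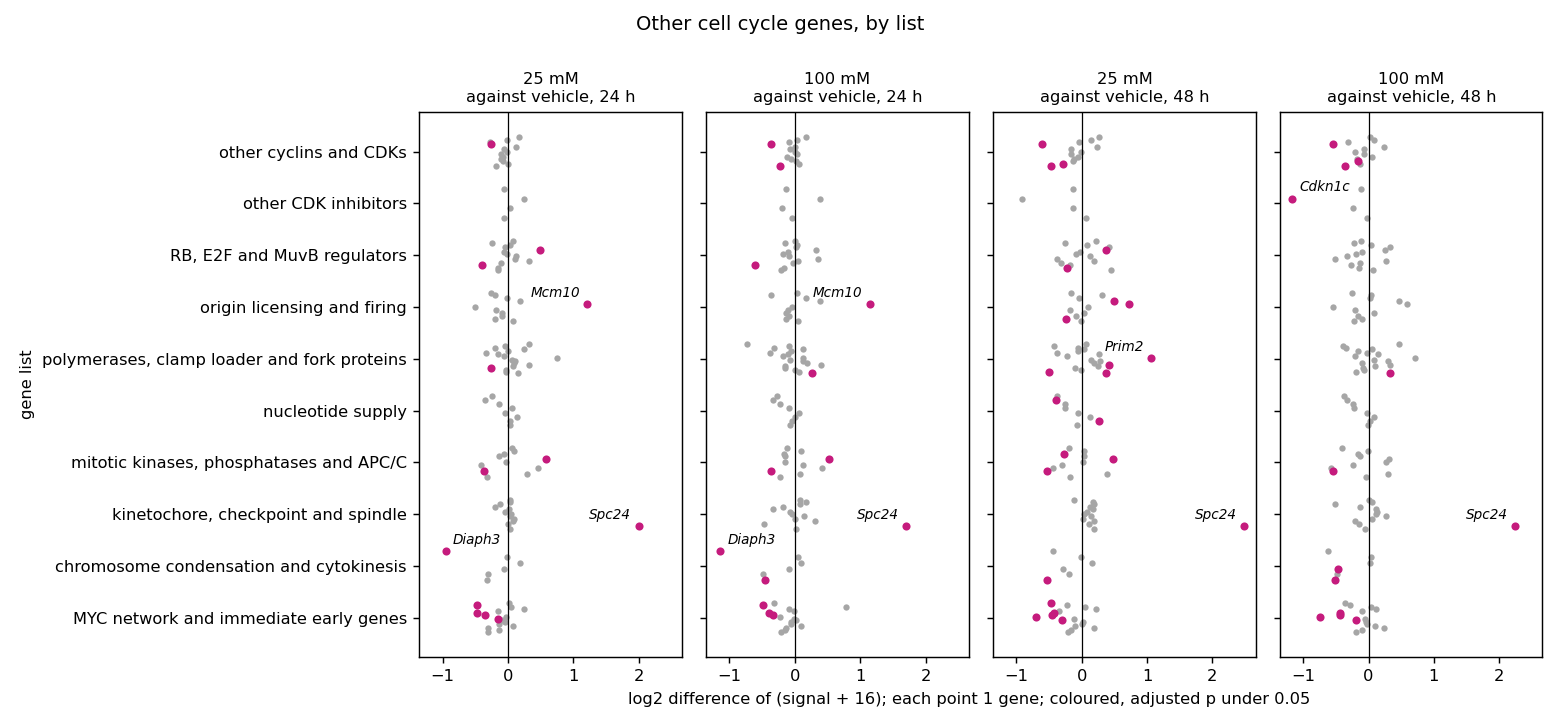
Log2 difference of (signal + 16) of the 114 other cell cycle genes tested, by list, in the 4 comparisons with the vehicle; each point is 1 gene, coloured where the adjusted p was under 0.05. Spc24 stands alone at 1.71 to 2.48, Mcm10 at 1.21 and 1.15 at 24 h, and most other genes lie near 0.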

How the data were processed

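RNA of 30 wells was hybridised to a rat genome array, 5 wells in each of 6 groups taken from the sample labels. The deposited intensity values are MAS5 signals on a linear scale, per the submitters' processing notes. The trimmed mean of every array was 1500.65 to 1500.76, so all arrays share 1 scale. No detection calls were used here, and the number of arrays limits the precision.

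Of 31099 probe sets 57 controls were left out. Of the rest 20826 had 1 gene symbol, 436 several and 9780 none in the platform annotation, and older symbols were updated through the RefSeq table of GRCr8. Signals were taken as log2(signal + 16). The 18625 probe sets whose mean over all arrays reached the 40th percentile entered 1 model of 6 groups with a variance trend (limma version 3.58.1, R version 4.3.3), and p-values were Benjamini-Hochberg adjusted over all of them. A call is an adjusted p under 0.05. The code was tested on simulated data.

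The background limit was to rest on at least 30 sensory receptor probe sets. Only 28 were named, so the 40th percentile of each group's mean was used, the fallback set down for that case. All listed genes are accounted for, and of each list of other genes up to 3 are named, those called against the vehicle with the largest difference. Spc25 and Nuf2 were added after their values were seen. The listed genes and the lists of other genes were chosen with earlier results of these data known. Alternatives were other normalisations, filters, added constants, variance models, array weights, ways to pick a probe set, and each array left out.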

Additional observations from a re-analysis of the deposited data

Results flagged for a closer look

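In 8 of 132 pairs of a tested gene and a group, 1 array lay far from the other 4 by Dixon's criterion, which chance meets in about 1 of 20 groups. In the vehicle at 24 h these were Mcm7 in replicate 1 with a signal of 1290.5 (others 899 to 955), Pcna in replicate 3 with 8865.5 (others 8375 to 8474) and Birc5 in replicate 3 with 111.4 (others 647 to 770.1). In the vehicle at 48 h it was Cdkn1b in replicate 1 with 7912.2 (others 11727 to 12915). At 25 mM and 24 h they were Cdk6 in replicate 1 with 433.4 (others 224 to 248) and Tk1 in replicate 1 with 1814.7 (others 2176 to 2326). At 25 mM and 48 h it was Ccnd3 in replicate 5 with 1554.3 (others 2124 to 2249.6), and at 100 mM and 24 h Tyms in replicate 3 with 860.6 (others 635 to 693).

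The 5S rRNA control, which enters no comparison of genes, had mean signals of 2160.4 and 2143.3 at 25 and 100 mM at 24 h, above 1037.4 in the vehicle, and of 1844.5 and 1612.9 at 48 h, above 847.35.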

How the results depend on the processing

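The number of genes above background depended on the limit: at 24 h it went from 24 to 14 with the 95th percentile of sensory receptor probe sets, an alternative chosen after seeing the data, and to 8 with the highest such probe set, and at 48 h from 21 to 11 with the latter. At 100 mM and 24 h the 2 calls became 4 with quantile normalisation, with median centring and with array weights. The added calls were rises under both scalings. At 100 mM and 48 h the 1 call became 3 with quantile normalisation, median centring, a filter at the 60th percentile, and the median over probe sets. Leaving out 1 array at a time gave 23 to 25 genes above background at 24 h and 20 to 22 at 48 h. It gave 2 to 4 calls at 25 mM and 24 h, 2 to 3 at 100 mM and 24 h, 2 to 5 at 25 mM and 48 h, 1 to 2 at 100 mM and 48 h, 2 to 4 in the vehicle over time, and 0 between doses and for the change of effect with time. With median centring the Pcna call in the vehicle over time was lost (adjusted p = 0.106). No value of a called listed gene changed sign under the alternatives run. The filter at the 60th percentile tests 13 listed genes and no filter 34. The array numbers in the labels run in 5 rounds through the 6 groups, and the labels do not call a round a batch. With the round as a block the calls against the vehicle were 4, 2, 4 and 1 as before, Ccne2 joined the vehicle over time, and the calls of Lin37 (adjusted p = 0.0522) and Ctps1 (0.052) at 25 mM and 48 h and of Cdkn1c (0.0513) at 100 mM and 48 h were lost. Low signal limits the mitotic genes most: 12 of the 34 genes could not be tested.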
